A study of Mus musculus with 12 samples.

Results

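The response to interferon-γ (IFNγ) was measured by RNA sequencing in Sdc1 knockdown cells, made from the mouse melanoma line B16 with a short hairpin RNA. Sdc1 encodes syndecan-1, a proteoglycan of the cell surface whose heparan sulfate chains bind growth factors and cytokines. The 6 libraries described here, of 12 in the series, were chosen by their labels: 3 from Sdc1 knockdown cells without IFNγ (shSdc1) and 3 from the same cells given IFNγ at 10 ng/ml for 24 h. The other 6 were a matched pair of groups of 3, B16 cells with a control hairpin against RFP (shRFP), without IFNγ and with the same dose and time. All cells were described as transfected with hairpin constructs and grown in the same serum-containing medium; the number of hairpins and of clones is not given in the sources used here. Whether libraries within a group are separate cultures is not stated by the labels, so p-values measure the spread between these libraries, which may be technical.

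IFNγ binds a receptor of 2 chains, Ifngr1 and Ifngr2, whose kinases Jak1 and Jak2 phosphorylate transcription factors of the STAT family. STAT dimers bind gamma-activated sites (GAS) in DNA and induce Irf1, and Irf1 and a complex that holds Stat2 and Irf9 bind interferon-stimulated response elements (ISRE). In melanoma cells the response is known for raising antigen presentation, chemokines for T cells and the checkpoint ligand PD-L1. It is switched off again by Socs1, which blocks the kinases.

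The 6 libraries held 14996784 to 18689331 counts, and levels are CPM (counts scaled to a common library size) after TMM scaling, in the order of replicates 1, 2 and 3. A gene was called changed when its adjusted p from edgeR's quasi-likelihood test was under 0.05, and errors are standard errors (SE) of the log2 change with 3 libraries a group. Markers of pigment cells were present in all 6 libraries, with a summed level of 12940 to 13369 CPM over 7 markers without IFNγ and 11747 to 13170 CPM with it. Of 18 leukocyte markers 3 passed the filter on low counts, their summed level was 8.57 to 9.38 CPM without IFNγ and 16.2 to 17.6 CPM with it, and Cd68 made up most of it. Cd3e, Cd8a, Itgax, Adgre1, Nkg7, Ncr1 and Ly6g were at 0 counts in the 6 libraries. The part of these markers in the results was not tested. One library stood apart: ENSMUSG00000119584, an identifier with no symbol in the tables used here, took 4.79% of the counts of shSdc1 replicate 3 and 0.0842 to 0.195% in the other 11.

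Sdc1 itself was not called changed by IFNγ in the knockdown cells. It stood at 23.4, 22.1 and 25.7 CPM in shSdc1 and at 27.0, 25.1 and 25.4 CPM with IFNγ, a log2 change of 0.12 ± 0.09 (adjusted p = 0.33). The ranges of the 2 groups overlapped. Of the 2 receptor chains, Ifngr1 stood at 14.9, 12.7 and 13.6 CPM in shSdc1 and at 15.9, 14.5 and 13.7 CPM with IFNγ, and its log2 change of 0.10 ± 0.09 did not pass (adjusted p = 0.46). Ifngr2 stood at 65.2, 59.7 and 59.1 CPM in shSdc1 and at 60.3, 65.7 and 64.4 CPM with IFNγ (log2 change 0.05 ± 0.06, adjusted p = 0.62).

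IFNγ changed 4295 of the 14089 genes tested in the knockdown cells, which is 30.5% of them. Transcripts of 2469 genes rose (17.5%) and those of 1826 fell (13.0%). The rises were far larger than the falls: 549 genes rose and 92 fell at least 2-fold, 264 rose and 15 fell at least 4-fold, and 94 rose at least 32-fold. The 15 depended most on shSdc1 replicate 3, without which only 4 of them were still called lower and 8 genes fell at least 4-fold. All 15 were still called lower without shSdc1 replicate 1 or 2, and 12, 13 and 12 without stimulated replicates 1, 2 and 3. The number of genes past a 4-fold fall was 26 without shSdc1 replicate 2 and 24 without stimulated shSdc1 replicate 1. Of the genes that rose, 29 had no count at all in the 3 unstimulated knockdown libraries and 26 had 1 to 3 counts. These passed the filter on low counts only through the stimulated libraries, so they could only differ upwards. Counts of risers in the lists below that hold such genes were fixed in part by the filter. The ranges of the 2 groups did not overlap for 4206 of the 4295 called genes, and for 45.9% of all genes tested. The median log2 change of all genes was 0.0042. Under upper-quartile scaling the median was -0.04 and the split of calls turned to 2047 higher and 2495 lower, so counts of small changes in either direction depend on the scaling. In bulk libraries such as these a change in the number of cells of a kind cannot be told apart from a change of RNA per cell.

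The pathway's own transcription factor Irf1 was among the genes that rose. It stood at 16.3, 16.6 and 15.3 CPM in shSdc1 and at 376, 349 and 361 CPM with IFNγ, a log2 change of 4.50 ± 0.07. Every stimulated library lay more than 20-fold above every unstimulated one. Socs1, the feedback inhibitor, stood at 0.0607, 0.0626 and 0.672 CPM in shSdc1 and at 5.26, 5.20 and 5.86 CPM with IFNγ (4.31 ± 0.48), with shSdc1 replicate 3 highest of the unstimulated libraries.

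The sequence around the start sites was searched for the binding motifs of these factors, and a larger share of the genes that rose strongly held them. GAS was searched as TTCNNNGAA and the ISRE core as the letters GAAA 2 times with any 2 bases between, both on either strand, in windows of 250 bases before to 50 after each RefSeq start (build GRCm38.p6, which is not the build named for the counts). Of 256 genes with a symbol that rose at least 4-fold, 183 had 227 windows. The ISRE core was in 31.7% of these windows, against 3.03% of the 12497 windows of tested genes and 3.44% of all 32851 windows. GAS was in 12.3% of them, against 6.84% and 8.30%, and 38.3% held either, against 9.49% and 11.3%. Of the 38 windows of genes that fell at least 2-fold, 7.89% held GAS and 0% the ISRE core.

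The 250 bases before the start of 6 central genes with a motif are shown, since their values are among those the response turns on; a match is a description and not a tested site. Capitals mark the motif, and all read 5′ to 3′ on the gene's strand. Psmb8, chr17:34197945-34198194 (+), has GAS beginning 97 bases before the start. Irf1, chr11:53769764-53770013 (+), has GAS at 90 bases, and its other listed start has no motif. Gbp2, chr3:142620413-142620662 (+), Oas3, chr5:120777660-120777909 (-), and Cxcl10, chr5:92348890-92349139 (-), have an ISRE core at 59, 75 and 213 bases. Socs1, chr16:10785537-10785786 (-), has 2 overlapping ISRE cores at 83 and 77 bases, printed as 1 run of capitals. B2m, which rose less than these, also has an ISRE core, at 139 bases, and is not printed.
Psmb8: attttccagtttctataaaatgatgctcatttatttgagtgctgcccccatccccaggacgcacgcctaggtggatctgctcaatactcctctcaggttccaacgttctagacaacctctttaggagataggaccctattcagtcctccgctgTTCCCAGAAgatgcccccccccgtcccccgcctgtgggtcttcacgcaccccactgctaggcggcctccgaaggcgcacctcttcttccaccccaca
Irf1: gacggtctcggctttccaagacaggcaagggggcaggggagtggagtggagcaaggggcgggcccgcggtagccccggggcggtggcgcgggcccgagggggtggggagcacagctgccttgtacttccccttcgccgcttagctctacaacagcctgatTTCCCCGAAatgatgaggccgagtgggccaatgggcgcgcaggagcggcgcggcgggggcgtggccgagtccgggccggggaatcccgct
Gbp2: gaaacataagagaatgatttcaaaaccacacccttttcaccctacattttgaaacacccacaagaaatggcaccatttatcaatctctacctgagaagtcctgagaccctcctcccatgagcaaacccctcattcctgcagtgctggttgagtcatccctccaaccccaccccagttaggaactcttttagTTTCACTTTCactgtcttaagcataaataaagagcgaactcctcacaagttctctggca
Oas3: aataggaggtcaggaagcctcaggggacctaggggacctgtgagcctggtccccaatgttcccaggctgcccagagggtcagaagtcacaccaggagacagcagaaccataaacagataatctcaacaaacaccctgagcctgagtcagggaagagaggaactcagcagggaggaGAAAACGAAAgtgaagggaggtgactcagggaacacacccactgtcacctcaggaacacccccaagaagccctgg
Cxcl10: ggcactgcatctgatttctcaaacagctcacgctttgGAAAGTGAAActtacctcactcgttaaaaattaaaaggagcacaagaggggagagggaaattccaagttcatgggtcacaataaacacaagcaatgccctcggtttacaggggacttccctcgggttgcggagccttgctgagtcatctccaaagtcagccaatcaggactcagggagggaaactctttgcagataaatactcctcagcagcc
Socs1: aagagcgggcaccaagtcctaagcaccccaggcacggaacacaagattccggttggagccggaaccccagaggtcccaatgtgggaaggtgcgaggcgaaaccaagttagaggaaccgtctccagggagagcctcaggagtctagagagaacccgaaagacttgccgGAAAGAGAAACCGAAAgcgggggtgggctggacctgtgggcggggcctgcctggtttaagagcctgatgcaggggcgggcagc
No motif of either kind was in the windows of Cxcl9, Psmb9, Tap1, H2-K1, H2-D1, H2-Aa or Cd274, all of which rose, so these letters in this window were not shared by all genes that rose.

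**Figure D1:**
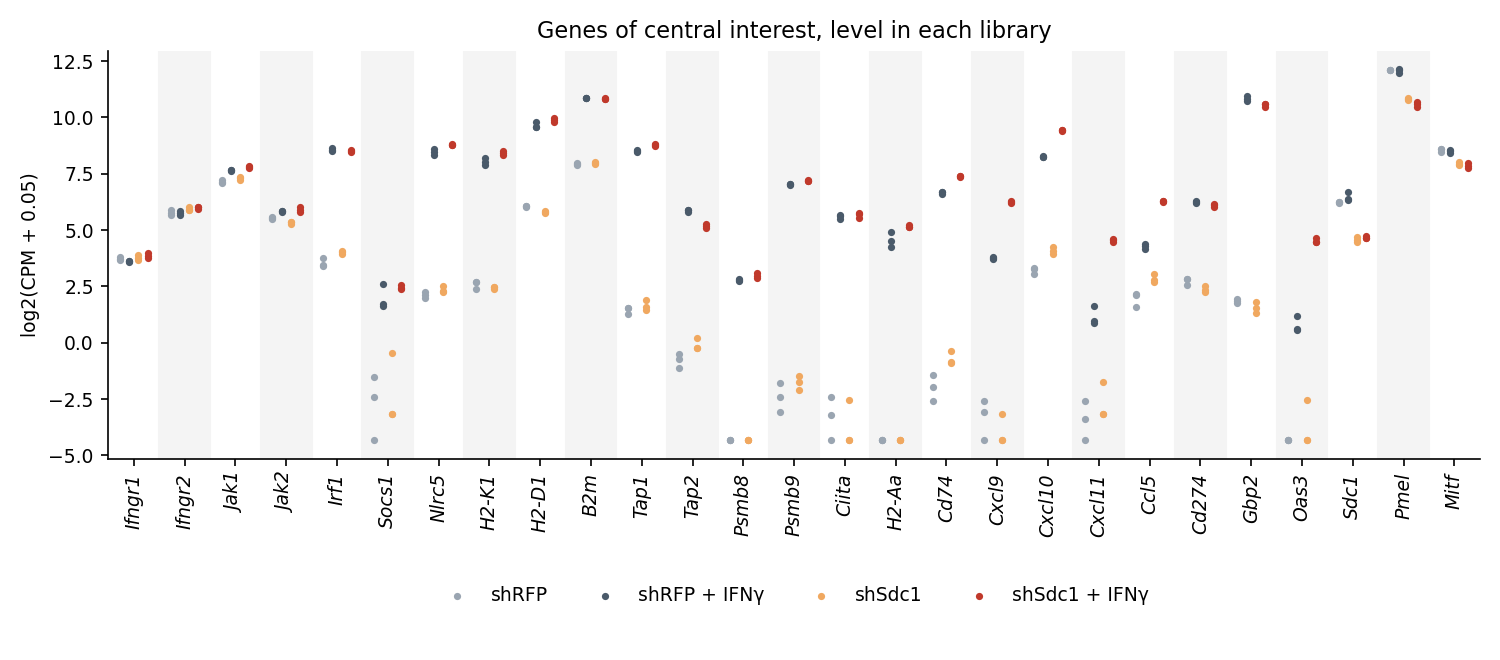
Level of genes of central interest in each of the 12 libraries, as log2(CPM + 0.05) so that 0 counts can be drawn, with 1 point per library and colours for the 4 groups. The stimulated shSdc1 libraries lie above the unstimulated ones for every gene from Jak1 to Oas3, while Ifngr1, Ifngr2, Sdc1 and Mitf overlap and Pmel is lower with IFNγ.

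Signal transducers rose in part. Of 10 genes for the receptor, Janus kinases and STATs, 7 rose and 0 fell, with a median log2 change of 0.53. Of all genes 17.5% rose and 13.0% fell. Jak1 rose from 158 to 223 CPM (0.50 ± 0.05) and Jak2 from 40.4 to 59.6 CPM (0.56 ± 0.06). Stat2 and Irf9, members of the ISRE-binding complex, rose from 21.9 to 389.7 CPM (4.15 ± 0.06) and from 12.1 to 84.2 CPM (2.80 ± 0.06). Stat3 rose from 95.1 to 272 CPM (1.51 ± 0.05). Of 10 brakes on the pathway 5 rose, against 17.5% of all genes, and the other 5 did not pass. Those that rose were Socs1, Usp18, a protease that also silences the type I receptor, Socs3, Ptpn6 and Ptpn1. Usp18 rose from 1.99 to 35.3 CPM (4.15 ± 0.16), Socs3 from 6.86 to 16.4 CPM (1.25 ± 0.12) and Ptpn1, a phosphatase, by only 0.19 on the log2 scale.

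Interferon regulatory factors differed among themselves. Irf7, the factor that amplifies antiviral responses, rose from 0.658 to 14.7 CPM (4.47 ± 0.21), and Irf5 from 0.287 to 1.77 CPM (2.60 ± 0.49). Irf8 had 0 counts in shSdc1 and 100 with IFNγ, at least 32.2-fold higher against the 3 counts over the group that a count of 0 allows. In all 6 of 9 rose, against 17.5% of all genes. Irf3, which is activated by phosphorylation, was the 1 that fell, and it stood at 22.4, 24.6 and 23.9 CPM in shSdc1 and at 20.7, 21.3 and 19.1 CPM with IFNγ (-0.22 ± 0.07, adjusted p = 0.029), a call that was lost without replicate 2 or 3 of shSdc1 or replicate 1 or 3 of the stimulated group, with no filter on low counts, and by DESeq2. None of the 10 interferon genes listed, Ifnb1 and Ifng among them, had a count in any of the 6 libraries.

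MHC class I genes rose as a group. All 10 tested of 17 listed were higher, with a median log2 change of 4.27, against 17.5% of all genes. H2-K1, a heavy chain that presents peptides to CD8 T cells, stood at 5.53, 5.50 and 5.19 CPM in shSdc1 and at 339.5, 367 and 323 CPM with IFNγ (5.99 ± 0.09). H2-D1, another such chain, stood at 56.0, 54.1 and 56.9 CPM in shSdc1 and at 942, 1002 and 879.7 CPM with IFNγ (4.08 ± 0.06). B2m, the light chain, was already abundant and rose from 251 to 1818 CPM (2.85 ± 0.03). Nlrc5, the transactivator of class I genes, stood at 4.68, 5.69 and 4.89 CPM in shSdc1 and at 445, 433 and 452 CPM with IFNγ (6.45 ± 0.08). Nonclassical H2-T23 rose from 0.103 to 14.9 CPM (7.09 ± 0.35) and H2-Q4 from 1.21 to 26.9 CPM (4.47 ± 0.15). Class I genes are similar in sequence, and how reads shared between them were counted is not given in the sources used here.

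Of 8 genes of peptide transport and loading 6 rose and 0 fell, against 17.5% and 13.0% of all genes. Tap1 and Tap2 form the transporter that moves peptides into the endoplasmic reticulum. Tap1 stood at 3.71, 2.69 and 2.99 CPM in shSdc1 and at 447, 434 and 429.6 CPM with IFNγ (7.12 ± 0.08) and Tap2 at 1.09, 0.813 and 0.794 CPM in shSdc1 and at 36.1, 34.5 and 38.9 CPM with IFNγ (5.33 ± 0.12). Tapbp, the tapasin that bridges transporter and heavy chain, rose from 45.4 to 553 CPM (3.61 ± 0.05), Tapbpl from 9.11 to 149 CPM (4.03 ± 0.07), and the trimming peptidase Erap1 from 20.0 to 232 CPM (3.53 ± 0.07). The general chaperones Calr and Canx did not pass, with log2 changes of 0.00 and -0.06.

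All 5 genes of the immunoproteasome and its cap rose, against 17.5% of all genes, and the catalytic subunits Psmb8 and Psmb9 started near 0. Psmb8 had no count in shSdc1 and stood at 7.73, 7.38 and 8.53 CPM with IFNγ, at least 128-fold higher. Psmb9 stood at 0.182, 0.25 and 0.305 CPM in shSdc1 and at 148, 146 and 145 CPM with IFNγ (9.17 ± 0.10), and Psmb10 at 14.8, 15.8 and 15.7 CPM in shSdc1 and at 305, 292 and 285 CPM with IFNγ (4.25 ± 0.06). The PA28 cap subunits Psme1 and Psme2, which open the proteasome's gate, rose from 42.4 to 261 CPM (2.62 ± 0.07) and from 23.1 to 196 CPM (3.08 ± 0.10). Of the 14 constitutive subunits 8 rose and 0 fell, against 17.5% and 13.0% of all genes. They moved by little: the median log2 change was 0.20, and Psma5 moved most, from 121 to 184 CPM (0.60 ± 0.06). The subunits that Psmb8, Psmb9 and Psmb10 replace in the particle, Psmb5, Psmb6 and Psmb7, did not pass, at -0.19, 0.04 and -0.04.

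Class II genes rose from a level at or near 0. Ciita, their master transactivator, had 2 counts in all in shSdc1 and stood at 54.2, 45.7 and 51.9 CPM with IFNγ, a ratio of counts of 1237 (95% exact interval 342 to 10218). The chains H2-Aa, H2-Ab1 and H2-Eb1 had no count in shSdc1. They stood at 36.8, 34.8 and 35.0 CPM, at 25.2, 28.9 and 27.9 CPM and at 36.9, 37.4 and 38.9 CPM with IFNγ. Against the floor these were at least 579-fold, 443-fold and 613-fold higher. Cd74, the invariant chain that guides class II molecules through the cell, stood at 0.729, 0.50 and 0.489 CPM in shSdc1 and at 168, 166 and 167 CPM with IFNγ (8.17 ± 0.10). The peptide exchange factors H2-DMa and H2-DMb1 each rose by 3.85 on the log2 scale. Of 11 genes listed 7 were tested. Their median log2 change was 8.79 when genes at 0 are put at their bound. All 7 rose, against 17.5% of all genes. Of these, Ciita, H2-Aa, H2-Ab1 and H2-Eb1 could only be called higher, given their counts in shSdc1. The other 4 of the 11, the protease Ctss among them with 0 counts in shSdc1 and 11 with IFNγ, were too low to test.

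Interferon-inducible GTPases, which attack the membranes of vacuoles that hold pathogens, rose from levels near 0. All 10 guanylate-binding proteins tested and all 12 immunity-related GTPases rose, against 17.5% of all genes. Their median log2 changes were 8.79 and 8.22 at the bounds. Members with no count or 1 count in shSdc1, Gbp4, Gbp9, Gbp10 and Tgtp1 among them, could only be called higher. Gbp2 stood at 3.46, 2.88 and 2.44 CPM in shSdc1 and at 1549.9, 1430.4 and 1553 CPM with IFNγ (9.01 ± 0.08). Gbp4 had 1 count in shSdc1 and stood at 413, 404 and 428 CPM with IFNγ, a ratio of counts with a 95% exact interval of 3632 to 799358. Gbp9 and Gbp10 had none, and were at least 1161-fold and 1256-fold higher. Iigp1 stood at 0.0607, 0.188 and 0.122 CPM in shSdc1 and at 1033, 1062 and 1121 CPM with IFNγ (13.00 ± 0.14), and Tgtp2 at 0.0607, 0.125 and 0.0611 CPM in shSdc1 and at 669.8, 632 and 668 CPM with IFNγ (12.84 ± 0.11). Tgtp1 had no count in shSdc1 and 345, 317 and 355 CPM with IFNγ, at least 5508-fold higher. Members of both families, Tgtp1 and Tgtp2 above all, are close copies, so how reads were split between them is uncertain.

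All 4 chemokines that attract T cells rose, against 17.5% of all genes. Cxcl9 had 1 count in shSdc1 and stood at 75.9, 74.1 and 77.3 CPM with IFNγ, a ratio of counts with a 95% exact interval of 663 to 146013. These intervals cover counting error only. Cxcl10 was already present and stood at 15.2, 17.0 and 19.0 CPM in shSdc1 and at 686, 692 and 666 CPM with IFNγ (5.32 ± 0.07). Cxcl11 stood at 0.0607, 0.0626 and 0.244 CPM in shSdc1 and at 22, 24.2 and 23.9 CPM with IFNγ (7.48 ± 0.28), and Ccl5 at 6.80, 8.19 and 6.48 CPM in shSdc1 and at 79.3, 78.1 and 75.3 CPM with IFNγ (3.44 ± 0.10). The first 3 bind the receptor Cxcr3. Of 18 other chemokines 8 were tested and 5 rose, against 17.5% of all genes. Cxcl1, which attracts neutrophils, stood at 8.20, 7.76 and 8.55 CPM in shSdc1 and at 33.5, 31.7 and 29.0 CPM with IFNγ (1.94 ± 0.15), and Cx3cl1, a membrane-bound chemokine, rose from 3.60 to 8.55 CPM (1.24 ± 0.14). The monocyte chemokine Ccl2 rose from 0.225 to 0.993 CPM (2.12 ± 0.51), and Cxcl2 and Ccl20 stayed under 2 CPM.

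Antiviral genes rose nearly throughout. All 9 genes tested of the OAS pathway, which detects double-stranded RNA, rose, against 17.5% of all genes. Their median log2 change was 4.95. Oas3 had 2 counts in shSdc1 and stood at 22.1, 25.2 and 22.2 CPM with IFNγ, a ratio of 566 (95% exact interval 156 to 4677), and Oasl2 rose from 0.349 to 158 CPM (8.80 ± 0.11). Of 21 antiviral effectors tested 20 rose, against the same share of all genes, and 1, Ifitm2, did not pass. Mx1, a gene of the Mx family of GTPases, stood at 2.00, 2.13 and 3.24 CPM in shSdc1 and at 61.7, 62.0 and 55.6 CPM with IFNγ (4.60 ± 0.12). Ifit3 rose from 5.45 to 296 CPM (5.76 ± 0.06) and its near copy Ifit3b from 1.21 to 78.8 CPM (6.02 ± 0.12). Xaf1 rose from 1.53 to 84.2 CPM (5.77 ± 0.11).

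The ubiquitin-like protein Isg15 and the enzymes that attach it rose together. All 6 genes passed: Isg15 stood at 3.40, 3.69 and 3.60 CPM in shSdc1 and at 132, 134 and 114 CPM with IFNγ (5.15 ± 0.10), the E1 enzyme Uba7 rose from 1.33 to 87.8 CPM (6.04 ± 0.10) and the E2 enzyme Ube2l6 from 8.61 to 171 CPM (4.31 ± 0.08). Of 15 nucleic acid sensors tested 14 rose, and the adaptor Mavs did not pass (-0.05). Zbp1, which senses Z-form nucleic acid, had no count in shSdc1 and stood at 216, 213 and 215 CPM with IFNγ, at least 3496-fold higher. The RNA sensors Ddx58 (RIG-I) and Ifih1 (MDA5) rose by 3.46 and 3.24 on the log2 scale, while the DNA sensor Cgas and its adaptor Tmem173 (STING) rose by only 0.44 and 0.71. All 6 interferon-induced PARPs and Dtx3l rose. Parp14 went from 11.4 to 492 CPM (5.43 ± 0.06). Of 15 apolipoproteins L and TRIM proteins tested 14 rose. Apol10b had no count in shSdc1 and stood at 26.1, 26.9 and 27.8 CPM with IFNγ. Of all genes 17.5% rose, the share to set beside each list count of this paragraph.

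Surface ligands seen by lymphocytes rose for some members. Of 21 listed, 11 were tested and 6 rose, against 17.5% of all genes. Over the alternatives 5 to 6 rose, and the call for the member Raet1e was lost in 13 of them. Cd274, which encodes PD-L1, the ligand that restrains T cells, stood at 5.65, 5.00 and 4.64 CPM in shSdc1 and at 70.7, 64.2 and 68.7 CPM with IFNγ (3.73 ± 0.08, adjusted p = 1.1e-17). Every stimulated library lay more than 10-fold above every unstimulated one. Cd47, the signal that holds off phagocytes, rose from 36.0 to 87.5 CPM (1.28 ± 0.06), Lgals9 (galectin-9) from 50.8 to 124 CPM (1.28 ± 0.06) and Tnfrsf14 (HVEM) from 0.637 to 10.6 CPM (4.05 ± 0.21). Cd276 (B7-H3) did not pass (0.26), and Pdcd1lg2 (PD-L2), Cd80, Cd86 and Icam1 were too low to test.

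Among cytokines 7 of 15 tested rose, against 17.5% of all genes. Csf1, the macrophage growth factor, stood at 73.3, 78.7 and 70.7 CPM in shSdc1 and at 275, 286 and 269 CPM with IFNγ (1.90 ± 0.05). Il18bp, the decoy that binds interleukin-18, rose from 3.42 to 34.6 CPM (3.34 ± 0.11), as did Il18 itself (2.48 ± 0.21) and Il15ra, which presents interleukin-15 to lymphocytes (2.24 ± 0.14). Vegfa, the angiogenic factor, was the 1 that fell, from 40.7 to 31.8 CPM (-0.36 ± 0.09). Enzymes that interferon induces in macrophages appeared at low levels: Nos2, the inducible nitric oxide synthase, and Acod1, which makes itaconate, had no count in shSdc1 and stood at 3.81, 3.66 and 3.27 and at 3.44, 4.25 and 2.67 CPM with IFNγ. Ido1, the tryptophan-degrading enzyme, had no count in any of the 6 libraries, while Wars, the tryptophan tRNA ligase, rose from 157 to 205 CPM (0.39 ± 0.04).

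Genes of cell death rose more often than they fell. Of 21 tested 13 rose and 1, Bax, fell (-0.37 ± 0.10), against 17.5% and 13.0% of all genes. Gsdmd, the pore-forming protein of pyroptosis, stood at 2.61, 2.94 and 2.81 CPM in shSdc1 and at 23.6, 24.5 and 22.3 CPM with IFNγ (3.07 ± 0.12). The inflammatory caspases Casp4 and Casp12 rose from 0.531 to 8.59 CPM (3.99 ± 0.27) and from 0.675 to 46.2 CPM (6.08 ± 0.16). Casp12 had no count in shRFP and 9.92, 7.73 and 10.3 CPM with IFNγ there, so the fitted difference of its 2 responses depends on the prior count and is no bound. Tnfsf10, which encodes the death ligand TRAIL, stood at 0.0607, 0.125 and 0.122 CPM in shSdc1 and at 8.54, 8.56 and 9.73 CPM with IFNγ (6.34 ± 0.29). The survival factor Mcl1 did not pass, at -0.01.

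Complement and serpin genes held single large rises. C4b, a near copy of C4a, stood at 0.304, 0.375 and 0.305 CPM in shSdc1 and at 134, 137 and 126 CPM with IFNγ (8.62 ± 0.13). C3, the central component, stood at 0.790, 0.813 and 0.0611 CPM in shSdc1 and at 10.4, 12.5 and 8.13 CPM with IFNγ (4.21 ± 0.39), with shSdc1 replicate 3 lowest. The serine proteases C1ra and C1s1 rose from 20.7 to 126 CPM (2.61 ± 0.07) and from 8.56 to 57.6 CPM (2.75 ± 0.15). In all 6 of 9 complement genes tested rose and 0 fell, and 6 of 11 serpins rose and 1 fell. Of all genes 17.5% rose and 13.0% fell. Serpina3f had no count in shSdc1 and stood at 36.5, 35.4 and 34.4 CPM with IFNγ. Serpinb9, which inhibits granzyme B, stood at 7.65, 7.07 and 6.54 CPM in shSdc1 and at 39.3, 39.0 and 42.7 CPM with IFNγ (2.51 ± 0.10).

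NF-kB genes rose in the knockdown cells. Of 16 subunits and targets 11 rose and 0 fell, against 17.5% and 13.0% of all genes, with a median log2 change of 0.62. Nfkbiz, an atypical inhibitor that also activates some targets, stood at 14.2, 11.6 and 12.2 CPM in shSdc1 and at 33.4, 40.6 and 29.9 CPM with IFNγ (1.45 ± 0.11). Nfkbie stood at 23.9, 25.6 and 23.6 CPM in shSdc1 and at 54.9, 58.6 and 47.8 CPM with IFNγ (1.15 ± 0.09), Bcl3 rose from 0.592 to 3.25 CPM (2.45 ± 0.34) and Tnfaip3 (A20) from 2.15 to 4.19 CPM (0.97 ± 0.22). The subunit Relb rose by 0.46 and Nfkb2 by 0.30 on the log2 scale, while Rela, Rel and Nfkb1 did not pass.

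In control cells the same 16 genes moved less. There 3 rose and 4 fell, against 17.2% and 14.4% of all genes in those cells, with a median of 0.11. For 7 of the 16 the response was larger in shSdc1 by a test of the difference, which 4.58% of all genes were. In control cells Relb was at 9.57, 11.9 and 10.6 CPM before and 6.81, 7.16 and 9.09 CPM after IFNγ, a log2 change of -0.48, and the difference of the 2 responses was 0.93 ± 0.17 (adjusted p = 0.0019). Junb, a subunit of the AP-1 factor, rose from 14.7 to 27.3 CPM (0.90 ± 0.12) in shSdc1 and was at 13.7 and 14.1 CPM in control cells, a difference of 0.87 ± 0.18 (adjusted p = 0.0064).

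**Figure D2:**
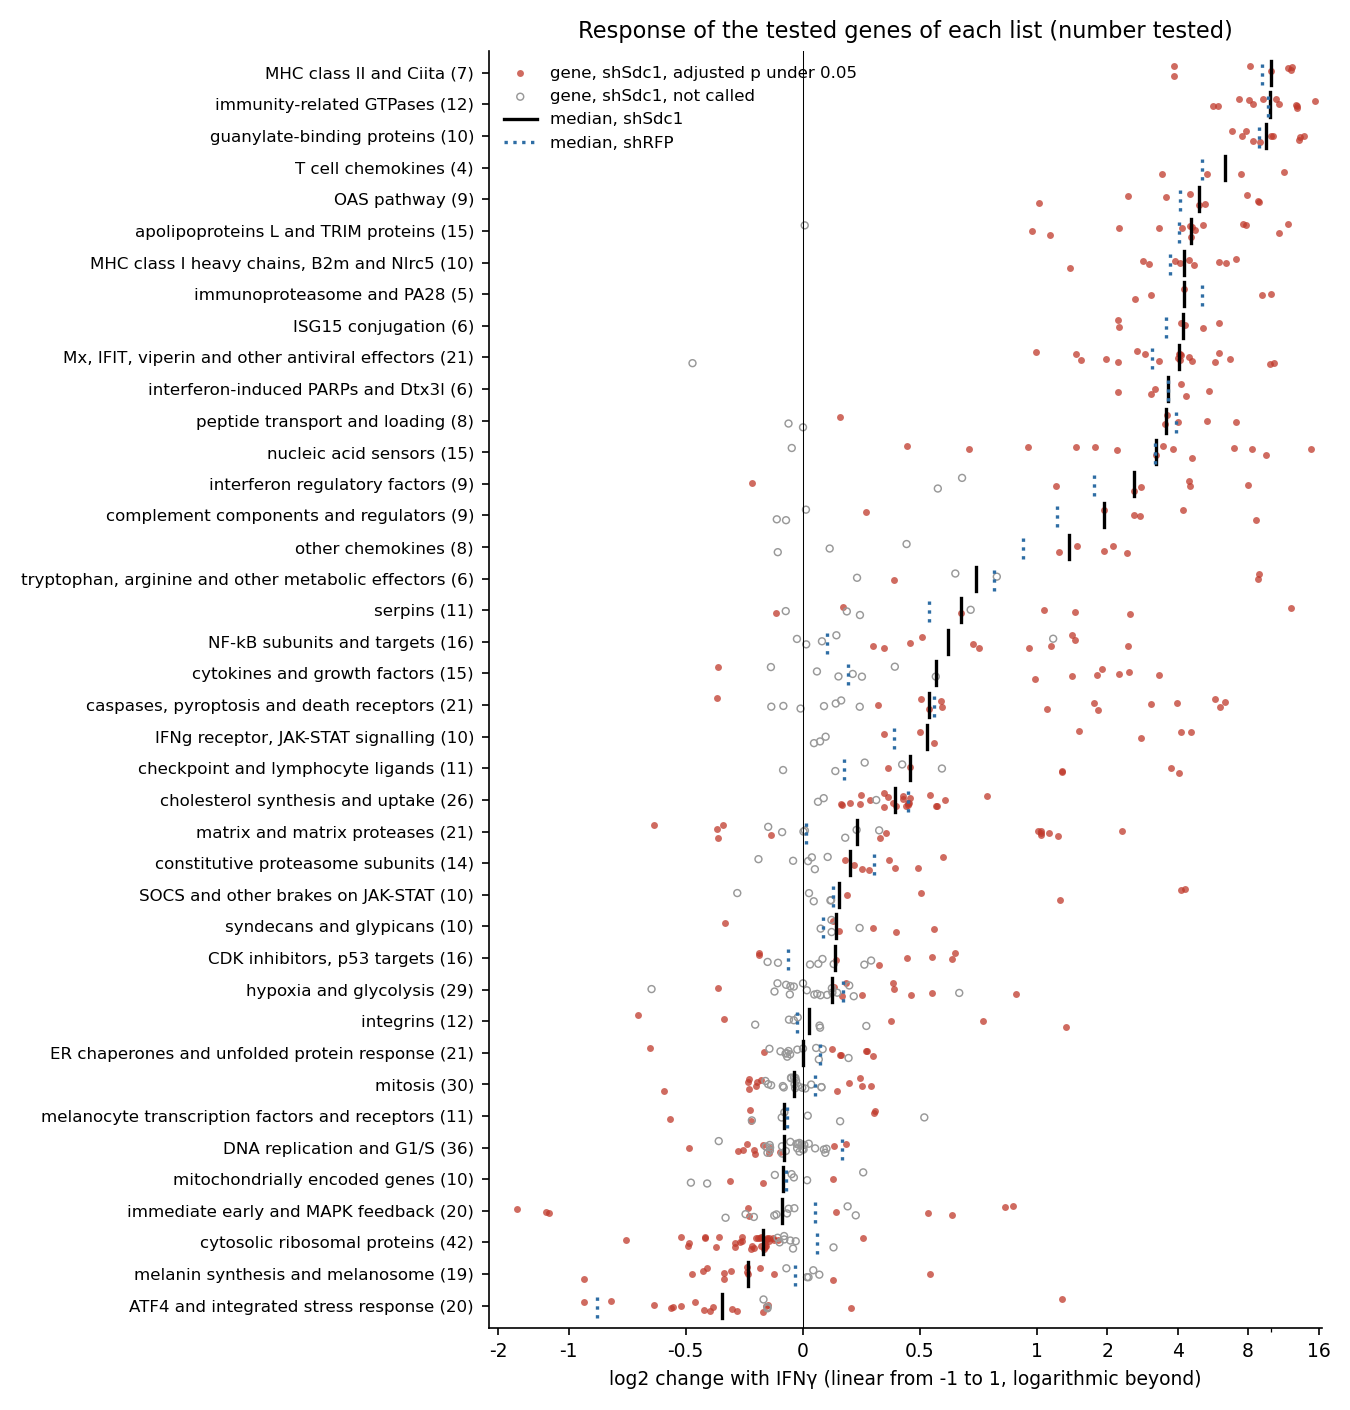
Log2 change with IFNγ of every tested gene of 40 gene lists in shSdc1 cells (filled, called at adjusted p under 0.05, open, not called), with the list's median in shSdc1 (solid bar) and in shRFP (dotted bar); the axis is linear between -1 and 1 and logarithmic beyond. Fitted changes of genes with 0 to 3 counts in shSdc1 depend on the prior count. Interferon and antigen presentation lists lie at the top and ATF4 targets, melanosome genes and ribosomal proteins at the bottom.

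Genes that make and take up cholesterol rose by small amounts. Of 26 tested 23 rose, against 17.5% of all genes, and 0 fell, with a median log2 change of 0.39. This count was 23 under every alternative tried. Fdft1, squalene synthase, stood at 76.7, 78.4 and 72.5 CPM in shSdc1 and at 112, 115 and 111 CPM with IFNγ (0.57 ± 0.05). The sterol exporter Abca1, which is not an enzyme of synthesis, rose from 25.0 to 38.0 CPM (0.61 ± 0.08). In control cells 23 rose too, against 17.2% of all genes there, with a median of 0.45.

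Falls were small by comparison and covered other groups of genes. The targets of Atf4, the factor that restores amino acid supply under stress, mostly fell. Of 20 tested 15 fell and 2 rose, against 13.0% and 17.5% of all genes, with a median of -0.34. Chac1, which degrades glutathione, stood at 25.1, 29.3 and 27.2 CPM in shSdc1 and at 14.8, 14.9 and 16.8 CPM with IFNγ (-0.82 ± 0.11). The cystine importer Slc7a11 stood at 82.8, 96.9 and 98.3 CPM in shSdc1 and at 48.9, 47.3 and 49.4 CPM with IFNγ (-0.93 ± 0.09), and the amino acid transporter Slc7a5 and the folate enzyme Mthfd2 fell from 229 to 155 CPM (-0.56 ± 0.05) and from 253 to 163 CPM (-0.64 ± 0.05). Atf3, a stress factor that also follows other signals, rose from 11.1 to 26.9 CPM (1.28 ± 0.10), and the folate enzyme Aldh1l2 rose by 0.21 on the log2 scale, a call lost when any 1 of the 6 libraries was left out. Without shSdc1 replicate 3 the list had 13 that fell and 1 that rose, and over all alternatives 12 to 16 fell.

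The same genes fell further in control cells. There 19 of the 20 fell, against 14.4% of all genes, with a median of -0.88. For 18 the test of the difference passed, each less negative or more positive in shSdc1, against 4.58% of all genes. Chac1 went from 61.7 to 16.8 CPM in control cells (-1.88) and the difference was 1.07 ± 0.15 (adjusted p = 0.00028). The median level of the list relative to each gene's mean over the 12 libraries was 0.58 to 0.61 in shRFP and -0.03 to 0.01 in shSdc1, on the log2 scale, and ended at -0.29 to -0.22 and -0.41 to -0.28 with IFNγ. The 2 responses thus started from levels that did not overlap.

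Transcripts for ribosomal proteins fell in the knockdown cells and not in the control cells. Of 42 tested 33 fell and 1 rose, with a median log2 change of -0.17, against 13.0% of all genes that fell. Rpl38 stood at 112, 101 and 108 CPM in shSdc1 and at 78.4, 73.5 and 76.1 CPM with IFNγ (-0.49 ± 0.10), and Rpl37 at 189, 173 and 186 CPM in shSdc1 and at 126, 129 and 135 CPM with IFNγ (-0.49 ± 0.08). Rps27 fell from 89.9 to 53.4 CPM (-0.76 ± 0.10) and Rps28 from 93.3 to 65.0 CPM (-0.52 ± 0.10). In control cells 7 rose and 0 fell, against 17.2% and 14.4% of all genes there, with a median of 0.06. For 30 of the 42 the response was smaller in shSdc1 by the test of the difference, which 5.15% of all genes were. Of the 33 genes that fell in shSdc1, 31 were still called lower without shSdc1 replicate 3, and at least 25 (without shSdc1 replicate 1) under every alternative tried. For the test of the difference, the highest adjusted p over the alternatives was 0.015 for Rpl38 and 0.017 for Rps27. It was 0.057 for Rpl37 and 0.068 for Rps28, so these calls did not hold throughout. Ribosomal protein genes have many processed copies in the genome, and how reads shared with them were counted is not given in the sources used here.

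The change with IFNγ also varied with transcript length over all genes. Over the 10358 genes of at least 5 CPM with a length, the longest transcript in GENCODE M21, the median log2 change in shSdc1 was -0.21 for the 127 genes under 600 bases, -0.11 for the 364 of 600 to 1000 bases and 0.02 for the 4166 of 2000 to 4000 bases. In shRFP these medians were 0.06, 0.08 and 0.04, and 8000 bases or more gave -0.12, against -0.05 in shSdc1. Without the listed ribosomal proteins the shortest 2 classes stood at -0.21 and -0.10 in shSdc1. The median length of the 42 ribosomal protein genes was 1259 bases. The 1522 genes of 1000 to 2000 bases had medians of 0.0067 in shSdc1 and 0.10 in shRFP. Among the 42, Spearman's rho of length with the log2 change in shSdc1 was 0.16. The part of length in the fall of ribosomal protein transcripts was not tested.

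Genes of DNA replication and the start of S phase showed a similar contrast. In shSdc1 2 of 36 rose and 10 fell, with a median of -0.08, against 13.0% of all genes that fell. In control cells 19 rose and 1 fell, against 17.2% and 14.4% of all genes, and for 15 the response was smaller in shSdc1, against 5.15%. In shSdc1 the number that rose ran from 0 (without stimulated shSdc1 replicate 2) to 3 and the number that fell from 7 (without shSdc1 replicate 1) to 15 (upper-quartile scaling) over the alternatives. Tyms, thymidylate synthase, stood at 97.6, 90.5 and 95.9 CPM in shSdc1 and at 80.3, 72.1 and 82.0 CPM with IFNγ (-0.28 ± 0.06) and at 91.7, 88.8 and 91.9 and 93.3, 104 and 94.7 CPM in control cells without and with IFNγ, a difference of -0.38 ± 0.08 (adjusted p = 0.0056). Ccne2, a G1/S cyclin, fell from 37.0 to 26.4 CPM (-0.49 ± 0.11). Of 30 mitotic genes 5 rose and 7 fell, against 17.5% and 13.0% of all genes. The kinase Aurka rose from 119 to 142 CPM (0.25 ± 0.06) and Mki67, the proliferation marker, stood at 808, 851 and 888 CPM in shSdc1 and at 497, 542 and 649.9 CPM with IFNγ (-0.59 ± 0.10). The inhibitor Cdkn1a (p21) rose from 179.9 to 264 CPM (0.55 ± 0.08).

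**Figure D3:**
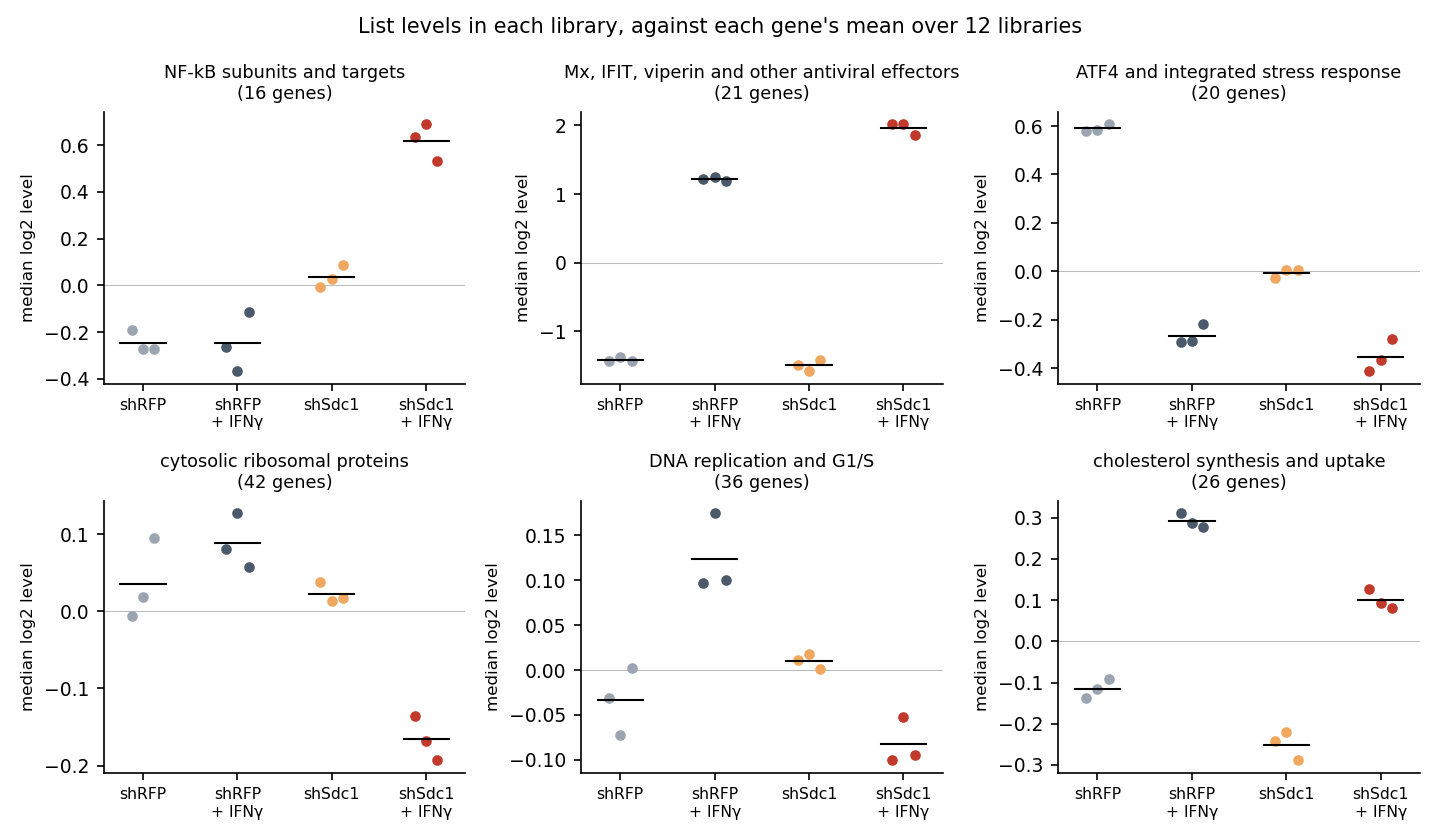
Median log2 level of 6 gene lists in each library (points; bar, mean of the 3), computed as log2(CPM + 0.5) less the gene's mean over the 12 libraries. NF-kB and antiviral genes end highest in shSdc1 with IFNγ, ribosomal protein and replication genes fall there and not in shRFP, and ATF4 targets fall in both but start lower in shSdc1; each panel has its own scale.

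Pigment-cell genes fell slightly. Of 19 melanin and melanosome genes 12 fell and 2 rose, against 13.0% and 17.5% of all genes, with a median of -0.23. Pmel, which forms the fibrils of the melanosome, stood at 1798, 1849 and 1745 CPM in shSdc1 and at 1543, 1397 and 1632 CPM with IFNγ (-0.24 ± 0.05). The transporter Slc45a2 fell from 299 to 223 CPM (-0.43 ± 0.04), the channel Trpm1 from 51.9 to 39.1 CPM (-0.41 ± 0.06) and tyrosinase, Tyr, by 0.31 on the log2 scale; Slc7a11 counts in this list too. Gpnmb and Bace2 were the 2 that rose (0.13 ± 0.03 and 0.54 ± 0.04). Mitf, the master regulator of the lineage, did not pass: it stood at 238, 257 and 241 CPM in shSdc1 and at 218, 227 and 254 CPM with IFNγ (-0.08 ± 0.06). Among melanocyte factors Sox5 and Pax3 fell (-0.57 ± 0.06 and -0.22 ± 0.04) and the receptor Mc1r rose (0.31 ± 0.05).

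Immediate early and feedback genes of MAP kinase signalling were called in both directions, with 5 of 20 tested higher and 5 lower, against 17.5% and 13.0% of all genes. The ETS factors Etv4 and Etv5 of the list fell, as did Etv1 outside it: Etv5 stood at 13.9, 13.3 and 15.8 CPM in shSdc1 and at 6.66, 5.79 and 6.06 CPM with IFNγ (-1.21 ± 0.14), Etv4 fell from 1.97 to 0.628 CPM (-1.66 ± 0.34) and Etv1 from 8.67 to 4.34 CPM. The feedback inhibitor Spry4 fell from 3.05 to 1.29 CPM (-1.25 ± 0.25), while the AP-1 subunits Junb, Fosl2 and Jun rose. Fosl2 went from 52.7 to 95.8 CPM (0.86 ± 0.09).

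Matrix and proteoglycan genes rose for some members. Thbs1, which encodes thrombospondin-1, an inhibitor of angiogenesis, stood at 26.3, 28.6 and 26.6 CPM in shSdc1 and at 140.4, 139 and 124 CPM with IFNγ (2.31 ± 0.06). Fn1, fibronectin, stood at 291, 302 and 292 CPM in shSdc1 and at 627, 593 and 602 CPM with IFNγ (1.04 ± 0.05), and the gelatinase Mmp2 rose from 6.48 to 13.3 CPM (1.04 ± 0.13). The protease inhibitor Timp2 fell from 339.8 to 264 CPM (-0.36 ± 0.04) and Col1a2 from 12.5 to 8.05 CPM (-0.63 ± 0.09). In all 9 of 21 tested rose and 5 fell, against 17.5% and 13.0% of all genes. Over the alternatives 7 to 11 rose and 3 to 6 fell. Among heparan sulfate proteoglycans Sdc4 stood at 85.0, 83.3 and 81.0 CPM in shSdc1 and at 129, 128 and 110.4 CPM with IFNγ (0.56 ± 0.06). Agrn (agrin) and Hspg2 (perlecan) of the basement membrane rose from 291 to 384 CPM (0.40 ± 0.05) and from 569 to 699.6 CPM (0.30 ± 0.05). Sdc3 fell from 108 to 86.0 CPM (-0.33 ± 0.06), and Sdc2 did not pass. The integrin chain Itga4 fell from 108 to 66.1 CPM (-0.71 ± 0.07).

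The largest falls among named genes, by a rule on level and separation, were smaller than 4-fold. Abca12, a lipid transporter, stood at 87.9, 93.0 and 82.0 CPM in shSdc1 and at 24.9, 24.7 and 23 CPM with IFNγ (-1.85 ± 0.06). Hoxa11 stood at 6.07, 6.19 and 5.50 CPM in shSdc1 and at 2.25, 2.42 and 2.67 CPM with IFNγ (-1.28 ± 0.17). Ftl1, the ferritin light chain that stores iron, fell from 196 to 103 CPM (-0.93 ± 0.08), and Prss12, Fam81a, Npnt, Mex3b, Sema3d and the RNA Snhg8 fell by 0.92 to 1.15 on the log2 scale. Of the 12 genes that rose most by the same rule all were named above among GTPases, class II chains, Zbp1, Serpina3f and Apol10b.

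Most genes that rose strongly in the knockdown cells rose in control cells too. In control cells 2422 genes rose (17.2%) and 2024 fell (14.4%), and the 2 comparisons share no library. Across the 14089 genes Pearson's r between the log2 changes was 0.875 and Spearman's rho 0.460, a description over genes that are not independent replicates. Of the 2469 genes that rose in shSdc1 1415 rose in control cells too, which is 57.3% of the first list and 58.4% of the second. Of the 1826 that fell 734 fell in control cells (40.2% and 36.3%). Of the 549 that rose at least 2-fold in shSdc1 410 rose in control cells, and for 441 no difference of the responses was called.

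The response differed between shSdc1 and shRFP for 1371 genes (9.73%), larger in shSdc1 for 645 (4.58%) and smaller for 726 (5.15%). The count was 789 without shSdc1 replicate 1, 822 without stimulated shSdc1 replicate 2, and 847 and 839 without shRFP replicates 1 and 2, and without stimulated shRFP replicate 2 the number larger was 422. Among class I genes H2-K1 rose more in shSdc1, with a difference of 0.56 ± 0.14 (adjusted p = 0.016), and H2-D1 likewise (0.51 ± 0.08, adjusted p = 0.00091). The call for H2-K1 was lost without shRFP replicate 1 or 2 or shSdc1 replicate 3 and by limma-voom, with an adjusted p of up to 0.11. Irf1 rose less in shSdc1, with a difference of -0.55 ± 0.10 (adjusted p = 0.0019), from 11.6 to 380.3 CPM in control cells and from 16.1 to 362 CPM in shSdc1. For Cd274 the difference of 0.23 ± 0.12 did not pass (adjusted p = 0.24).

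Several genes of peptide supply had smaller and several antiviral effectors larger responses in shSdc1. Of the 13 genes of loading and immunoproteasome 6 were called smaller and 0 larger, against 5.15% and 4.58% of all genes. In control cells Tap2 was at 0.410, 0.653 and 0.553 CPM before and 59.6, 58.8 and 55.1 CPM after IFNγ, so its stimulated level was higher in control cells, and the difference was -1.43 ± 0.28 (adjusted p = 0.0037). Erap1, Tapbp, Psmb10, Psme1 and Psme2 also had smaller responses, with differences from -0.84 for Psmb10 to -0.37 for Tapbp. The median levels of the 2 lists, relative to each gene's mean over the 12 libraries, did not end lower in shSdc1. On the log2 scale the loading list ended at 1.95 to 1.97 in shSdc1 and 1.74 to 1.86 in control cells. It also started higher, at -1.66 or above in shSdc1 and -2.02 or below in control cells. The immunoproteasome list ended at 1.99 to 2.19 in shSdc1 and 1.85 to 1.94 in control cells, from starting ranges that touched. Of the 21 antiviral effectors 10 had a larger and 2, Ifi35 and Bst2, a smaller response, against the same shares of all genes. In control cells Mx1 was at 3.87, 3.03 and 4.01 CPM before and 30.4, 28.2 and 30.6 CPM after IFNγ, a difference of 1.58 ± 0.19 (adjusted p = 6.5e-05), and Ifit3b differed by 1.51 ± 0.23. Ccl5 stood at 2.96, 4.39 and 4.35 and 19.4, 17.6 and 20.8 CPM in control cells and differed by 1.11 ± 0.17 (adjusted p = 0.00052). Thbs1 showed 1.31 ± 0.10 (adjusted p = 6.7e-07).

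Some genes were called in opposite directions in the 2 kinds of cells. There were 121, and the difference was called for each: 43 rose in shSdc1 and fell in shRFP, and 78 did the reverse. Cebpd, a transcription factor of the acute phase, stood at 3.04, 3.63 and 4.09 CPM in shSdc1 and at 8.0, 9.10 and 8.40 CPM with IFNγ (1.24 ± 0.16), and at 2.96, 2.37 and 2.00 CPM and 1.32, 1.93 and 1.69 CPM in control cells without and with IFNγ (-0.59). Timp3, another inhibitor of matrix proteases, stood at 16.9, 18.7 and 16.4 CPM in shSdc1 and at 22.9, 21.1 and 21.3 CPM with IFNγ (0.33 ± 0.09) and at 32.8, 37.3 and 32.6 CPM and 22.4, 19.8 and 24.2 CPM in control cells (-0.63). Cyb5r2 rose by 0.44 on the log2 scale in shSdc1, a call lost without replicate 1 or 2 of shSdc1 or 2 or 3 of the stimulated group, and changed by -1.02 in shRFP, and Kdm7a, a histone demethylase, by 0.46 and -0.40.

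Called differences followed transcript length. Among genes under 600 bases 22.8% had a smaller and 1.57% a larger response in shSdc1, and among the 646 genes of 8000 bases or more 1.39% had a smaller and 11.1% a larger one. The median difference went from -0.25 to 0.10 on the log2 scale over these classes. Across genes Spearman's rho of length with the log2 change was 0.00091 in shSdc1 and -0.26 in shRFP, and in shSdc1 the shortest and the longest classes both had medians below 0. The part of length in the called differences was not tested.

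**Figure D4:**
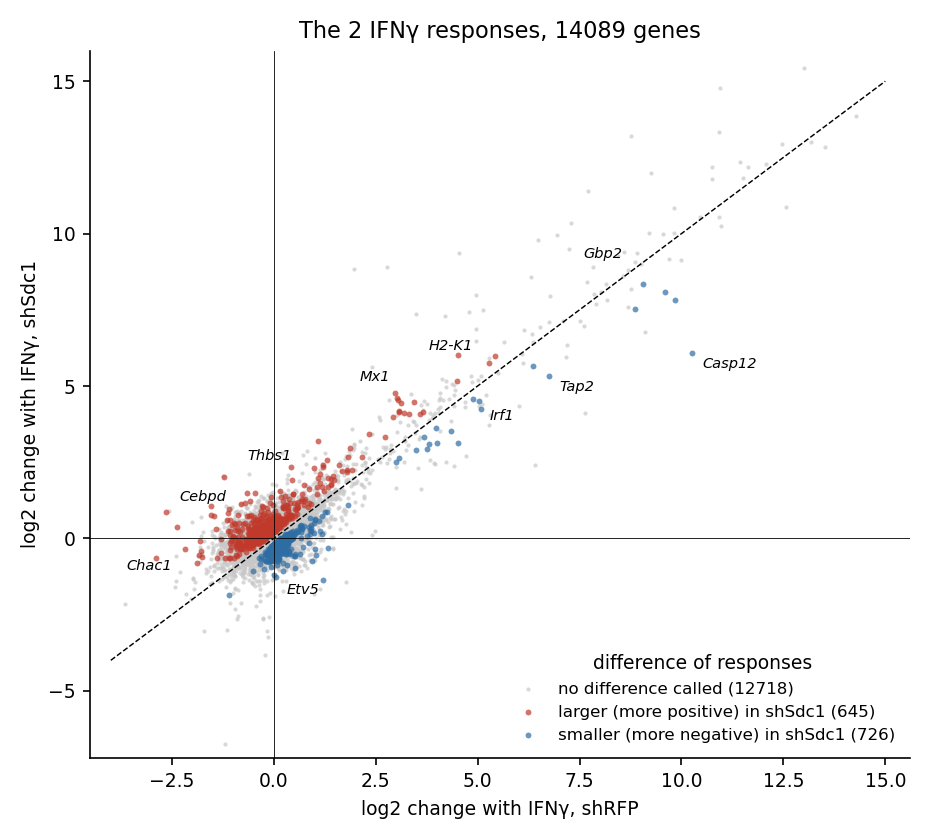
Log2 change with IFNγ in shRFP (x) and shSdc1 (y) for 14089 genes, with genes of a called difference coloured; the dashed line marks equal responses. Most strong risers lie near the line, Tap2 and Casp12 lie below it and Mx1 and H2-K1 above; fitted values of genes near 0 counts depend on the prior count.

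The calls were checked without shSdc1 replicate 3, the library with the high ENSMUSG00000119584 count. Then 3515 genes were called, 3375 of them among the 4295 and in the same direction (78.6%), and the median absolute change of a log2 value was 0.03. Of the 549 genes that rose at least 2-fold 514 remained called, and of the 92 that fell 57. Of 234 named genes called with all libraries 226 were still called; those lost were Aldh1l2, Gpc1, Irf3, Loxl2, Manf, Mmp15, Raet1e and Serpinb6b. Of the counts given for interferon and antigen presentation lists, those for interferon regulatory factors that fell and checkpoint ligands that rose lost 1 gene each by this step, and the others stayed as given.

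A small set of loci was highest in that library and lost its call as lower without it. For 11 of the 92 the ranges of the 2 groups overlapped and the call as lower was lost: they included ENSMUSG00000119584 itself, 2 other identifiers without a symbol, 7 assembled loci and Lars2. ENSMUSG00000119584 stood at 1084, 819 and 49112 CPM in shSdc1 and at 1103, 1319 and 1142 CPM with IFNγ. Lars2, the gene for a mitochondrial tRNA ligase, stood at 85.2, 68.5 and 1186 CPM and then at 70.0, 82.5 and 73.0 CPM, so its log2 change of -2.57 became -0.04 without replicate 3. The assembled loci XLOC_040204 and XLOC_021390 were called higher without it. These 11 stand in the count of 92 genes that fell at least 2-fold, and 10 of them in the 15 that fell at least 4-fold.

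**Figure D5:**
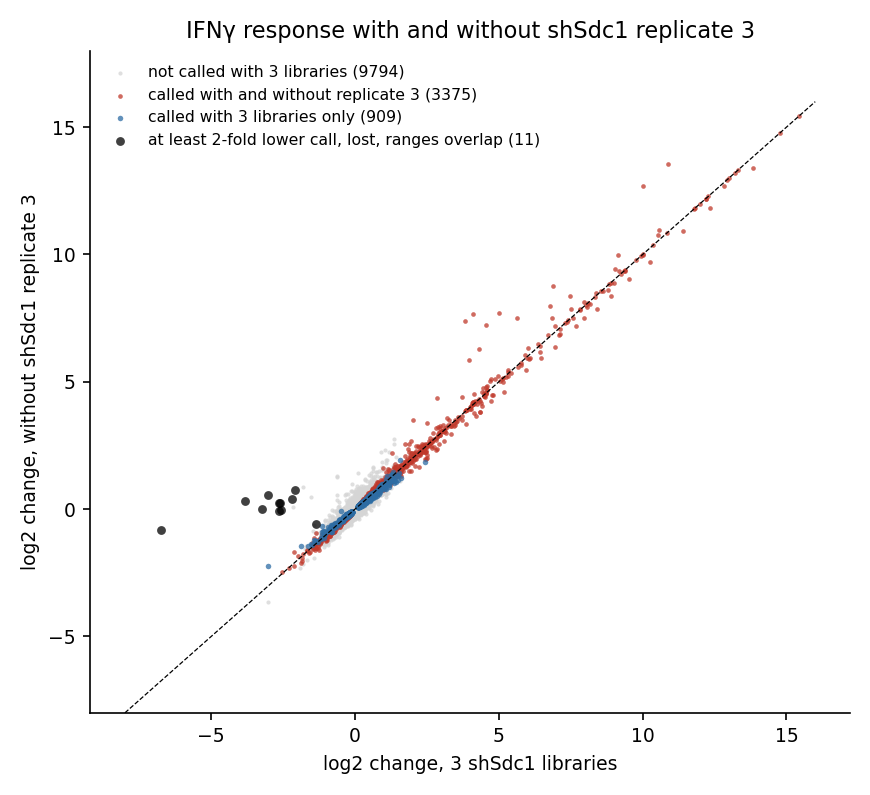
Log2 change with IFNγ in shSdc1 cells with all 3 unstimulated libraries (x) and without replicate 3 (y) for the genes tested in both. Most points lie along the line of equality. The 11 loci in black, of the 92 that fell at least 2-fold, lost the call as lower and had overlapping ranges. Replicate 3 was their highest unstimulated library, though at only 2.08 CPM for XLOC_028296. In all 35 of the 92 lost the call.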

How the data were processed

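RNA was sequenced from 12 libraries of B16 cells, 3 in each of 4 groups, and the values deposited by the authors were raw read counts per gene in 1 table. Per the labels' protocols total RNA was extracted with TRIzol and sequenced as paired ends on a HiSeq 2500 after a standard mRNA library kit. The tools Trimmomatic, HTSeq and HISAT2 2.0.5 and the build GRCm39 are listed in the submitters' processing notes; settings, strand among them, are not stated there, so overlapping and antisense genes and near-identical copies cannot be told apart with certainty. All 12 sample columns of the table were used, and total counts were 14337771 to 21548940 per library.

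From these counts genes were tested with edgeR 4.0.16 (R 4.3.3): filterByExpr with a count of at least 10 and a total of 15 left 14089 of 56093 rows, scaling was by TMM, and the quasi-likelihood model had 1 mean per group over all 12 libraries, with 8 residual degrees of freedom. P-values were adjusted by the Benjamini-Hochberg method over all 14089 genes, and standard errors are the log2 change divided by the square root of F. The difference of the responses was the interaction contrast. For genes with no count before stimulation a lower bound against 3 counts over the group is given, and for 1 to 3 counts a ratio with a 95% exact interval. The edgeR test of the response in shSdc1 was also run on simulated counts, and the other steps were not. Symbols, and transcript lengths taken as the longest transcript of a gene, came from GENCODE M21, and promoters from RefSeq (GRCm38.p6).

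The rule for named genes took genes of central interest, the 12 highest and 12 lowest changes of at least 5 CPM with groups that did not overlap, the 8 highest and 8 lowest differences, up to 5 genes per list with up to 3 against its direction, and 6 genes of opposite calls. Some genes that the rule took are not reported here. Other members of the lists that the text names were picked after their values were seen. The members, lists and rules were chosen with earlier results of these data known. Alternatives were DESeq2 1.42.0 size factors, upper-quartile scaling, DESeq2's Wald test, limma-voom (limma 3.58.1), other filters, fewer groups in the fit, a block on replicate number, leaving out each library, and leaving out ENSMUSG00000119584 with all assembled loci.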

Additional observations from a re-analysis of the deposited data

Results flagged for a closer look

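The response to IFNγ differed between shSdc1 and shRFP cells by edgeR's test of the difference for 1371 genes, and the values here are that difference on the log2 scale, shSdc1 less shRFP. Among genes of central interest it was -0.55 for Irf1, 0.56 for H2-K1, 0.51 for H2-D1, -1.43 for Tap2 and 1.11 for Ccl5.

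The largest positive differences by the naming rule were 1.92 for Inpp1, 1.83 for Cebpd, 1.80 for Pacsin1, 1.58 for Mx1, 1.51 for Ifit3b, 1.46 for Asap3, 1.46 for Cyb5r2 and 1.43 for Glipr2. The call for Pacsin1 was lost without replicate 1 or 2 of shRFP and without replicate 2 or 3 of shSdc1.

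The largest negative ones were -4.18 for Casp12, -2.02 for Apol9a, -1.53 for Ifi47 and -1.43 for Tap2, given above. Next were -1.41 for Clec2d, -1.34 for Gbp7, -1.32 for Hoxa11 and -1.21 for Etv5. Casp12 had no count in unstimulated shRFP libraries, so its value depends on the prior count, and its call was lost without shRFP replicate 1 or 2. The call for Apol9a, a near copy of Apol9b, was lost without shRFP replicate 1 or shSdc1 replicate 1 or 2, and that for Gbp7 without any of 7 libraries. Genes called in opposite directions in the 2 kinds of cells included Aldh1l2 with a difference of 1.03, Timp3 with 0.96, Relb with 0.93 and Kdm7a with 0.86.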

How the results depend on the processing

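The number of genes changed by IFNγ in shSdc1 cells stayed within 1.5 times of 4295 under all alternatives but a minimum fold: 4296 with DESeq2 size factors, 4542 with upper-quartile scaling, 4286 with no filter on low counts and with 1 CPM in 3 libraries, 4931 with 2 groups in the fit, 4313 by limma-voom, 3850 by DESeq2 and 4222 without ENSMUSG00000119584 and the assembled loci, and 3356 to 3911 with 1 library left out. With a change of at least 2-fold required, 641 genes passed in shSdc1 (549 higher, 92 lower), 570 in shRFP (412 and 158) and 108 for the difference (84 larger, 24 smaller).

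The number with a called difference depended on single libraries: it ran from 789 to 1999 with 1 library left out, 373 to 943 larger and 416 to 1056 smaller in shSdc1, and the cause was not tested. It was lowest without shSdc1 replicate 1 and highest without stimulated shRFP replicate 3. No range over the alternatives is given for the list counts of called differences. Same-numbered libraries did not pair, with correlations of deviations of -0.011, 0.00032 and 0.021 between unstimulated and stimulated shSdc1 and -0.018, -0.068 and -0.053 in shRFP, and with the replicate block 4018 genes were called for the response and 1028 for the difference.

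Of 3570 values of named genes' responses under alternatives, 3473 kept direction and side of the threshold and 97 lost the call; of 4744 values of their differences 4583 did so, 99 lost and 62 gained a call. No direction reversed among them. With motifs searched on the sense strand only, 13.7% of windows of genes that rose at least 4-fold held the ISRE core, against 1.42% of those of tested genes. Genes that the filter on low counts left out were not tested, and changes in them were not detectable at this depth.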
